A study of Mus musculus with 4 samples.

Results

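Expression of 10 genes that mark tissue macrophages was followed across mammary tumours of mice with and without the nuclear receptor gene Nr1d1: the complement genes C1qa, C1qb and C1qc, the apolipoprotein genes Apoe and Apoc1, the receptor genes Csf1r, Trem2 and Adgre1, and the lysosomal and granule genes Cd68 and Lyz2. All 10 of the 10 listed symbols were found among the 23238 gene symbols of the count files, and all 10 passed the filter on low counts. The genes were chosen by name, in a list drawn up with results of the same genotype comparison already known. The list itself states no measured value. Their levels and genotype differences are therefore given as a description, with no test. Genes of the same pathways that are not on the list were tested in the fit across all genes.

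RNA was sequenced from mammary gland tumours of FVB females at 14 weeks of age. All carry PyMT, the polyoma virus middle T antigen, an oncogene that drives mammary carcinoma. There are 2 groups: 2 libraries are labelled Nr1d1+/+;PyMT and 2 are labelled Nr1d1-/-;PyMT, and no tumour-free gland was included. Nr1d1 encodes REV-ERBα, a clock receptor that represses transcription. The labels name neither the promoter of the PyMT transgene nor the deleted exons, and they leave it unsaid whether each replicate is its own animal. The p-values then rest on the spread among these 4 libraries alone, which may be technical.

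C1q is the recognition part of the classical complement pathway, a soluble protein built from A, B and C chains that are all made in the same cell, and in most tissues that cell is a macrophage. Apolipoprotein E carries cholesterol and other lipids out of cells, and apolipoprotein C-I is a small companion on the same particles. CSF1R is the receptor for the growth factors CSF1 and IL-34 on which macrophages depend, and TREM2 is a lipid-sensing receptor that signals through the adaptor TYROBP. Macrophages rich in C1q, APOE and TREM2 are a known population of many tumours, and ADGRE1 (F4/80), CD68 and lysozyme are broader macrophage markers.

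The libraries held between 15905404 and 19116279 counts, so that 1 count was worth 0.0473 to 0.0733 CPM (counts relative to the library total after TMM scaling, which corrects for differences in RNA makeup). Nr1d1 itself was at 20.2 and 10.3 CPM in the Nr1d1+/+ libraries (replicates 1 and 2, always in this order) and at 10.6 and 12.8 CPM in the Nr1d1-/- libraries, so its transcript level does not check the genotype and every direction rests on the labels. Of 14801 genes tested with edgeR, 16.5% were called higher and 17.3% lower in the libraries labelled Nr1d1-/- at an adjusted p under 0.05, together 33.9%. The genotypes did not overlap for 34.4% of tested genes in the direction of higher and for 36.2% in the direction of lower values. The ribosomal RNA precursor Rn45s took 2.94% and 3.39% of counts in the Nr1d1+/+ libraries against 4.36% and 7.64% in the Nr1d1-/- libraries. Summed skeletal muscle markers reached 827 CPM in Nr1d1-/- replicate 1 against 22.2 to 31.4 CPM in the other libraries. The part of these differences in the results below was not tested. Epithelial markers summed to between 38972 and 55279 CPM, so the samples carry the transcripts of mammary tumour epithelium.

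Among the 10 genes, 7 were higher in both Nr1d1-/- libraries than in either Nr1d1+/+ library, 0 were lower in both, and 3 overlapped. The 7 were the 3 C1q chains, Apoe, Apoc1, Trem2 and Csf1r, and the 3 were Cd68, Adgre1 and Lyz2. Over all tested genes, 34.4% were higher and 36.2% lower without overlap. The median log2 fold, Nr1d1-/- over Nr1d1+/+, was 1.36 for the 10 genes and -0.01 for all tested genes. With the counts divided by the total count alone, Csf1r overlapped too, so that 6 of the 10 did not overlap, and 21.5% of tested genes were then higher without overlap. In bulk tumour RNA, more cells of a type and more RNA per cell cannot be told apart. The plot of levels by library shows the C1q, Apoe, Apoc1 and Trem2 pairs apart and the Cd68, Adgre1 and Lyz2 pairs interleaved.

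**Figure D1:**
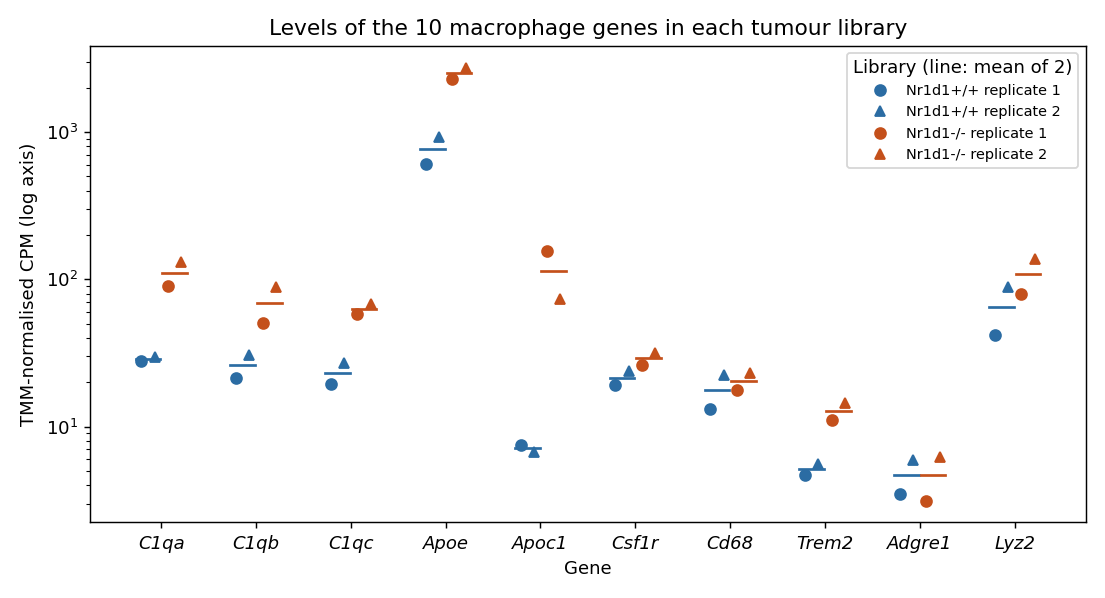
TMM-normalised CPM (log axis) of each of the 10 genes in the 4 tumour libraries; circles are replicate 1, triangles replicate 2, and lines the mean of 2. Apoe is the most abundant in every library (602 to 2730 CPM), and Apoc1 has the widest gap between the genotypes (6.7 and 7.52 against 73.4 and 155 CPM).

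The C1q chains are encoded side by side on the minus strand of chromosome 4 (GRCm38), C1qb from 136880129 to 136886187, C1qc from 136889804 to 136893065 and C1qa from 136895917 to 136898803, within 18.7 kb. C1qa was at 28.1 and 29.7 CPM in the Nr1d1+/+ libraries and at 90.3 and 131 CPM in the Nr1d1-/- libraries. Both Nr1d1-/- libraries were thus well above both Nr1d1+/+ libraries, with means of 28.9 ± 1.12 and 111 ± 28.7 CPM (SD, n = 2) and a log2 fold of 1.94 (standard error, SE, 0.22). C1qb was at 21.4 and 30.7 CPM against 50.5 and 88.1 CPM, a log2 fold of 1.41 (SE 0.30). C1qc was at 19.6 and 26.9 CPM against 58 and 67.8 CPM, a log2 fold of 1.44 (SE 0.23). For all 3 chains the lower Nr1d1-/- library was replicate 1, and the summed chains were at 69.2, 87.3, 199 and 287 CPM in the order above. Of all tested genes, 7.66% had a log2 fold at or above that of C1qb.

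Per kilobase of transcript, C1qa supplied 42.9% and 36.1% of the C1q chain transcripts in the Nr1d1+/+ libraries and 47.9% and 47.8% in the Nr1d1-/- libraries. The C1qa share was thus higher in both Nr1d1-/- libraries, while its protein chain is used in equal number with the others. The C1qb share was 31.2% and 35.7% against 25.6% and 30.8%, lower in both. The C1qc share was 25.9% and 28.2% against 26.6% and 21.4%, which overlap.

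The genes on either side of the C1q cluster did not share one pattern. Zbtb40, 80.9 kb away, was at 11.1 and 12.4 against 14.9 and 11.7 CPM and did not pass (edgeR adjusted p = 0.645). Ephb2, an ephrin receptor gene 44.1 kb away, was at 4.26 and 3.11 against 9.97 and 11.4 CPM and was called higher (edgeR adjusted p = 0.0107, log2 fold 1.53). Wnt4, a mammary growth signal 378.7 kb away, was at 49.4 and 33.1 against 485 and 182 CPM and was also called higher (edgeR adjusted p = 0.00264, log2 fold 3.01). Epha8 and Lactbl1 had 0 counts in all 4 libraries, and Tex46, listed under an older symbol, had 1 count in all.

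Promoter sequence was available from RefSeq (GRCm38.p6) for 6 of the 10 genes, and the 250 bases before the RefSeq start were searched. They are shown for C1qb, Apoe and Trem2, whose libraries did not overlap, and for Cd68, whose libraries did. For C1qc, whose libraries did not overlap either, the RefSeq start lies within the GENCODE gene, so that 151 of the 250 bases fall inside it, and only the 99 bases before both starts are shown. Capitals mark 3 motifs searched on both strands: GAGGAA, a core bound by the macrophage factor PU.1, AGGTCA, the core bound by many nuclear receptors, and TAGGTCA, part of the longer site that REV-ERBα and the ROR receptors prefer, which contains AGGTCA. Of all 32851 RefSeq promoters, windows of the same length hold GAGGAA in 23.3%, AGGTCA in 14.0% and TAGGTCA in 2.23%.
C1qb, chr4:136886201-136886450, minus strand: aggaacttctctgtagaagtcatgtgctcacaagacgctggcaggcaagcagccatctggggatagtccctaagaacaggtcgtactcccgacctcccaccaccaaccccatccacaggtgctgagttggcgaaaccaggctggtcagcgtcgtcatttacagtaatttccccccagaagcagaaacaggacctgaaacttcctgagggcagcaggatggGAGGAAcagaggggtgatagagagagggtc
C1qc, chr4:136893066-136893164, minus strand: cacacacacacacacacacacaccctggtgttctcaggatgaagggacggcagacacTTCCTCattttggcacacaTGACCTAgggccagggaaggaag
Apoe, most upstream of 3 start sites, chr7:19699189-19699438, minus strand: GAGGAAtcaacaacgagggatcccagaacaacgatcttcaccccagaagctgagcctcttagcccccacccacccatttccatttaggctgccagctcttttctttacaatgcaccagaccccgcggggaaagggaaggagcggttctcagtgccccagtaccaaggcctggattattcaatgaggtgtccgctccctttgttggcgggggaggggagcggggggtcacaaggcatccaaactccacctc
Trem2, chr17:48346151-48346400, plus strand: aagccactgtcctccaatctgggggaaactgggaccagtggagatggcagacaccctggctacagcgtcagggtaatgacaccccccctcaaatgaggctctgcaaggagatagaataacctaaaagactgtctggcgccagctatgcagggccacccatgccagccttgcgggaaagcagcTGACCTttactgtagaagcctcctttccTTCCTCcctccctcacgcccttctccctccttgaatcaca
Cd68, chr11:69666171-69666420, minus strand: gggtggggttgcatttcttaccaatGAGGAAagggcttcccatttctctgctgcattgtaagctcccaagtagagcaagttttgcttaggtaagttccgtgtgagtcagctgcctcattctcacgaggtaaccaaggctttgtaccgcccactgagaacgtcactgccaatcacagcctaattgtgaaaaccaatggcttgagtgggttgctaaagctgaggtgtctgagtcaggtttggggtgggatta
GAGGAA began 30 bases before the RefSeq start of C1qb, 193 bases before that of C1qc (42 before its GENCODE start), 250 bases before that of Apoe, 40 bases before that of Trem2 and 225 bases before that of Cd68. Lyz2, the other gene searched, held none of the 3 motifs, and neither did the second of the Apoe start sites. They were on the opposite strand in C1qc and Trem2, where they read as TTCCTC. Of the 6 genes, only C1qc held TAGGTCA in these windows, on the opposite strand 174 bases before the RefSeq start (23 before the GENCODE start), and Trem2 held AGGTCA on the opposite strand 68 bases before it. A match describes the letters and is no evidence of binding.

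Apoe and Apoc1 lie next to each other on the minus strand of chromosome 7, Apoc1 from 19689481 to 19692660 and Apoe from 19696109 to 19699188, within 9.7 kb. Apoe was at 602 and 927 CPM in the Nr1d1+/+ libraries and at 2287 and 2730 CPM in the Nr1d1-/- libraries. The higher Nr1d1+/+ library stood far below the lower Nr1d1-/- library, with means of 765 ± 229 and 2509 ± 313 CPM (SD, n = 2) and a log2 fold of 1.71 (SE 0.26). By mean CPM over all genes, Apoe ranked 140 in the Nr1d1+/+ libraries and 59 in the Nr1d1-/- libraries.

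Apoc1 had the largest fold of the 10 genes under every alternative that was run. It had 159 and 140 counts in the Nr1d1+/+ pair and 2117 and 1183 counts in the Nr1d1-/- pair, which are 7.52, 6.7, 155 and 73.4 CPM. The log2 fold was 4.0 (SE 0.36), and 27 of the 14801 tested genes had a log2 fold at or above it. The Nr1d1-/- libraries differed by more for Apoc1 than for the C1q chains and in the other order: replicate 2 was at 0.473 times replicate 1 for Apoc1 and at 1.45, 1.74 and 1.17 times for C1qa, C1qb and C1qc. Skeletal muscle markers were high in Nr1d1-/- replicate 1, and without it the log2 fold of Apoc1 was 3.37. Apoe was 30.3 and 52.2 times as abundant as Apoc1 per kilobase in the Nr1d1+/+ libraries and 5.57 and 14.1 times in the Nr1d1-/- libraries.

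Around this pair of genes, Tomm40, a mitochondrial import channel gene 2.1 kb from Apoe, was at 53.5 and 59 against 98.1 and 77.4 CPM and was called higher (edgeR adjusted p = 0.034, log2 fold 0.64). Nectin2, a cell adhesion gene listed as Pvrl2, was at 40.5 and 37.1 against 104 and 96.5 CPM and was also called higher (edgeR adjusted p = 0.00226, log2 fold 1.37). Bcam, an adhesion receptor gene for laminin, was at 36.7 and 40.3 against 60.6 and 49 CPM and did not pass (edgeR adjusted p = 0.0815). Apoc2, which encodes the activator of lipoprotein lipase, had 9 and 21 against 7 and 15 counts (edgeR adjusted p = 0.971, log2 fold 0.04), and Apoc4 had at most 6 counts in any library. Reads of Apoc2 and Apoc4 can be split with an annotated transcript that joins them, which had 10 counts at most. The high Apoc1 counts of the Nr1d1-/- libraries were thus not seen in the other apolipoprotein C genes of the cluster, which were near the limit of detection.

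Of the receptors, Trem2 was at 4.68 and 5.6 CPM in the Nr1d1+/+ libraries and at 11.1 and 14.4 CPM in the Nr1d1-/- libraries, with a log2 fold of 1.31 (SE 0.32). Its libraries were ordered like those of the C1q chains. Csf1r was at 19.1 and 23.7 against 26.2 and 31.8 CPM, with a log2 fold of 0.44 (SE 0.23) that was 0.06 when counts were scaled by library size alone. The 2 genotypes were apart for Csf1r by less than the spread within either pair of libraries. Hmgxb3 overlaps Csf1r on the opposite strand of chromosome 18, and the strand setting of the counting is unknown here. Adgre1 was at 3.5 and 5.94 against 3.15 and 6.27 CPM, with means of 4.72 ± 1.72 and 4.71 ± 2.2 CPM (SD, n = 2) and a log2 fold of 0.02 (SE 0.46). Scaled by library size alone it was -0.36, and it also turned to -0.01 without a filter, and, when Nr1d1+/+ replicate 1 or Nr1d1-/- replicate 2 was left out, to -0.35 or -0.58.

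Cd68, a glycoprotein of lysosomes, was at 13.1 and 22.5 CPM in the Nr1d1+/+ libraries and at 17.7 and 23.3 CPM in the Nr1d1-/- libraries, a log2 fold of 0.21 (SE 0.31). It turned to -0.18 with library size only, to -0.24 with trends in GC content and transcript length taken out and to -0.17 without Nr1d1+/+ replicate 1. Lyz2, the myeloid lysozyme, was at 41.7 and 88.8 against 79.7 and 138 CPM, a log2 fold of 0.74 (SE 0.36), and the higher Nr1d1+/+ library was above the lower Nr1d1-/- library. The log2 fold of Lyz2 was 0.26 without Nr1d1+/+ replicate 1 and 1.37 without Nr1d1+/+ replicate 2. Lyz1, a near-identical neighbour, was at 6.48 and 11.8 against 10 and 22.2 CPM (edgeR adjusted p = 0.164), and how reads were split between both lysozyme genes is uncertain. For 9 of the 10 genes, all but Apoc1, replicate 2 was the higher library in both genotypes.

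Read against Csf1r in the same library, which needs no scaling factor, C1qa had 1.47 and 1.26 reads per Csf1r read in the Nr1d1+/+ libraries and 3.45 and 4.12 in the Nr1d1-/- libraries. The C1qb ratio was 1.12 and 1.3 against 1.93 and 2.77, and the C1qc ratio was 1.03 and 1.14 against 2.22 and 2.13. The Apoe ratio was 31.5 and 39.2 against 87.4 and 85.9. None of these ratios overlapped between the genotypes. The Apoc1 ratio was 0.394 and 0.283 against 5.93 and 2.31, and the Trem2 ratio was 0.245 and 0.237 against 0.423 and 0.453, again without overlap. The Lyz2 ratio was 2.18 and 3.76 against 3.04 and 4.34, which overlapped. The same 6 genes, and Lyz2 as well, did not overlap when read against Cd68 or against Adgre1. C1qa, for example, had 2.15 and 1.32 against 5.09 and 5.63 reads per Cd68 read, and 8.03 and 5 against 28.7 and 20.9 reads per Adgre1 read. Relative to each of these 3 broader macrophage transcripts, C1q, Apoe, Apoc1 and Trem2 were thus higher in both Nr1d1-/- libraries. The plot of ratios shows this for Csf1r. These are ratios of raw counts, so the trends in transcript length and GC content described below remain in them. Of the other tested genes, 15.0% had a higher ratio to Csf1r in both Nr1d1-/- libraries than in either Nr1d1+/+ library, 14.3% a higher ratio to Cd68 and 15.3% a higher ratio to Adgre1.

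**Figure D2:**
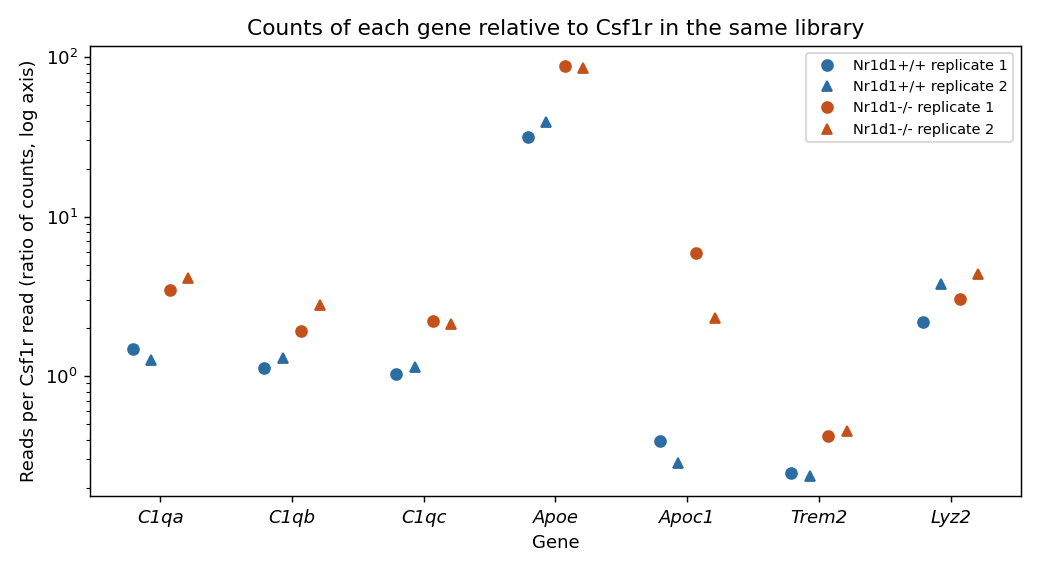
Reads of 7 genes per Csf1r read (ratio of raw counts, log axis) in each of the 4 libraries; circles are replicate 1 and triangles replicate 2. The Nr1d1-/- ratios are above both Nr1d1+/+ ratios for the C1q chains, Apoe, Apoc1 and Trem2, and overlap them for Lyz2 (2.18 and 3.76 against 3.04 and 4.34).

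Per kilobase of the longest coding transcript, the order of mean levels in the Nr1d1+/+ libraries was Apoe (543 CPM per kb), Lyz2 (49.6), C1qa (27.8), C1qb (24), C1qc (19.3), Cd68 (14.5), Apoc1 (13.4), Trem2 (4.73), Csf1r (4.55) and Adgre1 (1.46). In the Nr1d1-/- libraries it was Apoe (1782 CPM per kb), Apoc1 (215), C1qa (106), Lyz2 (82.6), C1qb (63.7), C1qc (52.3), Cd68 (16.7), Trem2 (11.7), Csf1r (6.16) and Adgre1 (1.45). Apoc1 thus stood seventh in the first order and second in the other. Neighbours with overlapping libraries were, in the Nr1d1+/+ order, C1qa and C1qb, C1qb and C1qc, C1qc and Cd68, Cd68 and Apoc1, and Trem2 and Csf1r, and in the Nr1d1-/- order C1qa and Lyz2, Lyz2 and C1qb, C1qb and C1qc. All other neighbours in either order were apart.

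Transcript length and GC content differed among the 10 genes along with their folds. Transcripts of the 3 C1q chains, Apoe, Apoc1 and Trem2 were 532 to 1408 bases long with 54.9% to 59.5% GC. Csf1r (4701 bases, 54.5% GC) and Adgre1 (3238 bases, 47.2% GC) were longer, and Cd68 (1230 bases, 52.9% GC) and Lyz2 (1316 bases, 48.3% GC) were short. Over all tested genes the median log2 fold was 0.68 for the 1323 transcripts under 1500 bases with 50% to 60% GC, a class that holds the C1q chains, Apoe, Apoc1, Trem2 and Cd68. It was 0.25 for 820 short transcripts under 50% GC, the class of Lyz2, and -0.29 for 2389 transcripts of 3000 to 5000 bases with 45% to 55% GC, the class of Csf1r and Adgre1. These classes were set after the values were seen. Once the trends of each library were removed, the log2 folds were 1.12 for C1qa, 0.71 for C1qb, 0.77 for C1qc, 1.01 for Apoe, 3.27 for Apoc1 and 0.61 for Trem2, all smaller but above 0, and 0.52 for Csf1r, -0.24 for Cd68, 0.29 for Adgre1 and 0.52 for Lyz2. The median of the 10 was then 0.66, against 1.36 with the trends left in. The gap between Csf1r and Trem2 narrowed from 0.44 against 1.31 to 0.52 against 0.61.

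**Figure D3:**
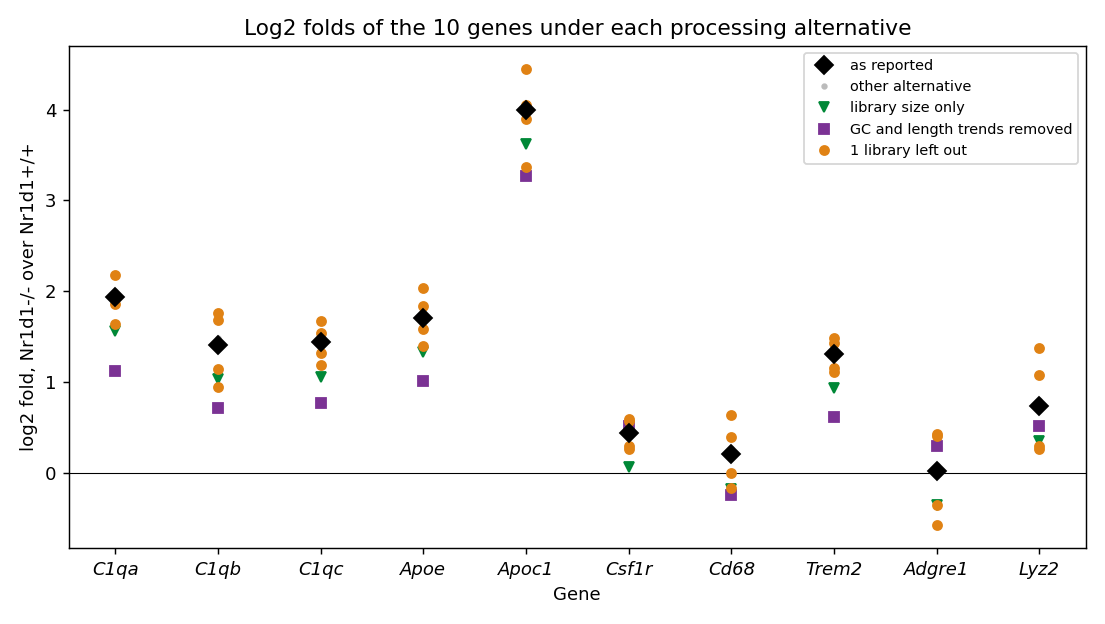
Log2 fold (Nr1d1-/- over Nr1d1+/+) of each of the 10 genes as reported (diamonds) and under each processing alternative. C1qa, C1qb, C1qc, Apoe, Apoc1, Trem2, Csf1r and Lyz2 stay above 0 in all alternatives shown, the lowest being 0.06 for Csf1r, while Cd68 (-0.24 to 0.64) and Adgre1 (-0.58 to 0.43) fall on both sides of 0.

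Macrophage genes outside the 10 were mixed. Of 44 listed, 42 were tested, and 9 rose, 4 fell and 29 did not pass, which is 21.4% called higher and 9.52% lower against 16.5% and 17.3% of all tested genes. The median log2 fold of the list was 0.45, and it was 0.06 with library size only, 0.13 without Nr1d1+/+ replicate 1, where 4 rose, and 0.84 without Nr1d1+/+ replicate 2, where 1 fell. The whole list summed to 2949.6 and 2908 CPM in the Nr1d1+/+ libraries and to 3130.3 and 4609 CPM in the Nr1d1-/- libraries, which do not overlap. Most of these counts were of Spp1, osteopontin, and without it, a choice made after the values were seen, the sums were 853 and 1023 against 898 and 962 CPM, which overlap. Common leukocyte markers summed to 331 and 396 against 366 and 391 CPM, a sum that includes Lcp1, which fell (124 and 175 against 72.2 and 73.5 CPM). The shared leukocyte gene Ptprc was at 5.54 and 9.38 against 0.513 and 5.83 CPM (edgeR adjusted p = 0.218). Of 17 tested genes of that list, Coro1a, Arhgdib and Hcls1 were called higher, and Lcp1 and Ikzf1 lower. Its median log2 fold was 0.35, and Coro1a, the lowest in p, was at 14.7 and 19.8 against 37.3 and 54.7 CPM (edgeR adjusted p = 0.00556). The part of macrophage number in the levels of the 10 genes was not tested.

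The clearest rise in this list was Ms4a7, a membrane protein gene of tissue macrophages, at 10.3 and 12.5 CPM in Nr1d1+/+ and 33 and 34.6 CPM in Nr1d1-/- libraries (log2 fold 1.57, SE 0.23, edgeR adjusted p = 0.00292). Cx3cr1, the fractalkine receptor, rose from 9.37 and 6.99 to 26.3 and 21.4 CPM (edgeR adjusted p = 0.00494). Aif1, which encodes the actin-binding protein IBA1, rose from 14 and 15.9 to 32.1 and 38 CPM (edgeR adjusted p = 0.00535). Maf, a transcription factor of resident macrophages, rose from 18.2 and 16.9 to 86.2 and 34.5 CPM (edgeR adjusted p = 0.00915). These 4 calls held under every alternative. Cd33 (log2 fold 1.35), Lgmn (0.92), Tyrobp (1.33), Ms4a6c (2.20) and Stab1 (0.90) rose too, but each lost its call without Nr1d1+/+ replicate 1, with edgeR adjusted p-values of 0.0537, 0.0543, 0.124, 0.0504 and 0.148. Lgmn and Stab1 lost it without Nr1d1+/+ replicate 2 as well (edgeR adjusted p = 0.0623 and 0.0984), Lgmn and Tyrobp without Nr1d1-/- replicate 2 (0.0826 and 0.055), and Ms4a6c and Stab1 without Nr1d1-/- replicate 1 (0.141 and 0.0546). With library size only, Lgmn, Tyrobp and Stab1 did not pass either (0.11, 0.0672 and 0.153).

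Among the genes that fell, Mpeg1, the pore-forming perforin-2, fell from 13.9 and 19.3 to 5.86 and 6.95 CPM (edgeR adjusted p = 0.0112), and its call was lost without Nr1d1+/+ replicate 2 (0.0861). Marco, a scavenger receptor, was at 1.51 and 1.48 CPM and had 0 counts in both Nr1d1-/- libraries, at least 7.38-fold lower against a floor of 3 counts per library (edgeR adjusted p = 0.0124, and 0.0562 and 0.0673 without Nr1d1+/+ replicate 1 or 2). Cd14, named after its values were seen, went from 175 and 173 to 126 and 110 CPM (edgeR adjusted p = 0.035), and only the fit without Nr1d1-/- replicate 1 kept its call among those that leave out 1 library, with 0.0836, 0.106 and 0.124 in the others. Mrc1, the mannose receptor, was at 8.14 and 10.6 against 11.4 and 10.7 CPM (edgeR adjusted p = 0.566), and the integrin gene Itgam was at 10.7 and 13.4 against 13.4 and 16.1 CPM (edgeR adjusted p = 0.429).

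The list of receptor partners, which holds ligands, adaptors and relatives of CSF1R, TREM2 and lysozyme, did not move as one. Of 26 listed, 19 were tested, and 2 rose, 4 fell and 13 did not pass. This is 10.5% called higher and 21.1% lower, against 16.5% and 17.3% of all tested genes. The median log2 fold was 0.00, and it was -0.46 without Nr1d1+/+ replicate 1 and -0.61 without Nr1d1-/- replicate 2. Csf1, the main ligand of CSF1R, fell from 25.2 and 43.8 to 10.5 and 12 CPM (log2 fold -1.62, SE 0.31, edgeR adjusted p = 0.00586), and this held under every alternative. Il34, the second ligand, was at 1.42 and 1.48 against 0.66 and 2.48 CPM (edgeR adjusted p = 0.869). Tyrobp, the adaptor of TREM2, rose from 4.21 and 7.04 to 12.2 and 15.9 CPM (edgeR adjusted p = 0.0194), and removing both trends took its log2 fold from 1.33 to 0.60 (edgeR adjusted p = 0.244). Spi1, which encodes PU.1, was at 5.77 and 6.18 against 11.7 and 10.4 CPM and missed the threshold (edgeR adjusted p = 0.0513). The protease genes Adam17 and Adam10, whose products shed TREM2 from the cell surface, fell with log2 folds of -1.15 and -0.81 (edgeR adjusted p = 0.00657 and 0.0214). Adam10 lost its call once the trends were removed (0.317), and also when Nr1d1+/+ replicate 2 (0.166) or Nr1d1-/- replicate 1 (0.0571) was left out. Pik3r1, a regulatory subunit of PI 3-kinase, fell by 0.92 on the log2 scale (edgeR adjusted p = 0.00881, and 0.12 with the trends removed). Lgals3, a galactose-binding lectin, rose by 1.11 (edgeR adjusted p = 0.0173, but 0.108 once the trends were removed and 0.0738 when Nr1d1+/+ replicate 2 was left out).

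Complement genes other than C1q went both ways. Of 42 listed, 31 were tested, and 6 rose, 4 fell and 21 did not pass, with a median log2 fold of 0.41. This is 19.4% called higher and 12.9% lower, against 16.5% and 17.3% of all tested genes. With library size only, 3 rose and the median was 0.03, and with upper quartile scaling 10 rose. For the enzymes that join C1q in the C1 complex, the genotypes overlapped. C1ra was at 3.64 and 5.75 against 4.11 and 6.39 CPM (edgeR adjusted p = 0.771), and C1s1 was at 2.37 and 7.52 against 3.08 and 3.41 CPM (edgeR adjusted p = 0.436). C3, the central component, fell from 157 and 178 to 79.5 and 61.6 CPM (log2 fold -1.25, SE 0.20, edgeR adjusted p = 0.00332). C4b, named after its values were seen and next after C1 in the cascade, was at 101 and 85.8 against 114 and 191 CPM and did not pass (edgeR adjusted p = 0.056). The transcripts of C1q and C3 thus stood on opposite sides of the genotype comparison.

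Among the other called genes of the complement list, Cd59a, an inhibitor of the membrane attack complex, rose from 79.6 and 71 to 181 and 136 CPM (edgeR adjusted p = 0.00535). Cfp, properdin, which stabilises the alternative pathway convertase, rose from 3.55 and 4.17 to 9.75 and 16.9 CPM (edgeR adjusted p = 0.00813). C1qtnf1, a secreted C1q-related protein, fell from 41.2 and 61.9 to 18.8 and 17.3 CPM (edgeR adjusted p = 0.00385). The calls of C3, Cd59a, Cfp and C1qtnf1 held under every alternative. Cfd, adipsin, which fat cells also make, rose from 2.74 and 9.38 to 42.5 and 20.8 CPM (edgeR adjusted p = 0.0104, and 0.0671 with the trends removed). C5ar2, a receptor for C5a, rose with a log2 fold of 0.97 (edgeR adjusted p = 0.0131, and 0.1 without Nr1d1+/+ replicate 2), and Masp2, a lectin pathway protease, fell with -1.91 (0.0114, and 0.05 without that library). Serping1 (log2 fold 1.48), the C1 inhibitor, and C4a (0.88) rose, and Cd55 (-0.70), a decay-accelerating inhibitor, fell, with edgeR adjusted p-values of 0.0267, 0.0478 and 0.0213. All 3 of these lost their calls without Nr1d1+/+ replicate 1 (0.0801, 0.23 and 0.0945), C4a and Cd55 also without Nr1d1-/- replicate 2 (0.16 and 0.0576), and C4a without Nr1d1+/+ replicate 2 (0.142). C4a is a near-identical copy of C4b, so the split of reads between them is uncertain. With library size only, C5ar2, Serping1 and C4a did not pass (0.0617, 0.0709 and 0.232), and with the trends removed neither Serping1 nor Cd55 did (0.0727 and 0.191).

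Lipoprotein and cholesterol transport genes other than Apoe and Apoc1 also went both ways. Of 40 listed, 30 were tested, and 6 rose, 4 fell and 20 did not pass. This is 20% called higher and 13.3% lower, against 16.5% and 17.3% of all tested genes. The median log2 fold was 0.31 and turned to -0.07 with library size only, where 7 fell. Lpl, lipoprotein lipase, rose from 239 and 131 to 1304 and 689 CPM (log2 fold 2.43, SE 0.36, edgeR adjusted p = 0.00293). Gpihbp1, which holds that lipase on capillary walls, rose from 2.74 and 5.89 to 16.3 and 37.4 CPM (edgeR adjusted p = 0.00494). Pltp, the phospholipid transfer protein, rose from 10.9 and 15 to 39.7 and 37.7 CPM (edgeR adjusted p = 0.00303). Lipa, the lysosomal lipase that frees cholesterol, fell from 158 and 109.9 to 50.9 and 48.3 CPM (log2 fold -1.43, SE 0.22, edgeR adjusted p = 0.00298). The calls of Lpl, Gpihbp1, Pltp and Lipa held under every alternative.

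Abca1, the transporter that loads cholesterol onto apolipoproteins, fell from 22.9 and 37.3 to 8.36 and 13.1 CPM (log2 fold -1.48, edgeR adjusted p = 0.0103). It was not called without Nr1d1+/+ replicate 2, where the log2 fold was -1.10. Apoe and Abca1 thus stood on opposite sides of the genotype comparison. Mylip fell with a log2 fold of -0.79 (edgeR adjusted p = 0.0229). It was not called without Nr1d1+/+ replicate 1, where the log2 fold was -0.53. The nuclear receptor gene Nr1h2 rose with 0.64 (edgeR adjusted p = 0.0212), a value that was 0.08 with the trends removed (edgeR adjusted p = 0.779). Leaving out either Nr1d1+/+ library (0.0905 for replicate 1, 0.106 for replicate 2) or Nr1d1-/- replicate 1 (0.065) ended the Nr1h2 call. Apod, an apolipoprotein unrelated to the C group, rose from 3.97 and 7.33 to 12.8 and 25.1 CPM (edgeR adjusted p = 0.0134, and 0.0511 without Nr1d1-/- replicate 2). Lrpap1, a receptor chaperone, rose with 0.61 and Plin2, a lipid droplet coat protein, fell with -0.55 (edgeR adjusted p = 0.0416 and 0.0434), and neither was called without Nr1d1+/+ replicate 2 (0.119 and 0.247) or Nr1d1-/- replicate 2 (0.192 and 0.0725). Lrpap1 was not called without Nr1d1+/+ replicate 1 either (0.162), nor was Plin2 without Nr1d1-/- replicate 1 (0.119). With library size only, Nr1h2 and Lrpap1 did not pass (0.263 and 0.397), and with the trends removed neither Mylip nor Lrpap1 did (0.0622 and 0.0523). Lrp1, which encodes a receptor for APOE, was at 19.4 and 39.6 against 49.9 and 37 CPM and did not pass (edgeR adjusted p = 0.215). The liver apolipoproteins Apob, Apoa4 and Apoa5 had 0 counts in all 4 libraries, and Apoa1 had 3 counts in all.

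**Figure D4:**
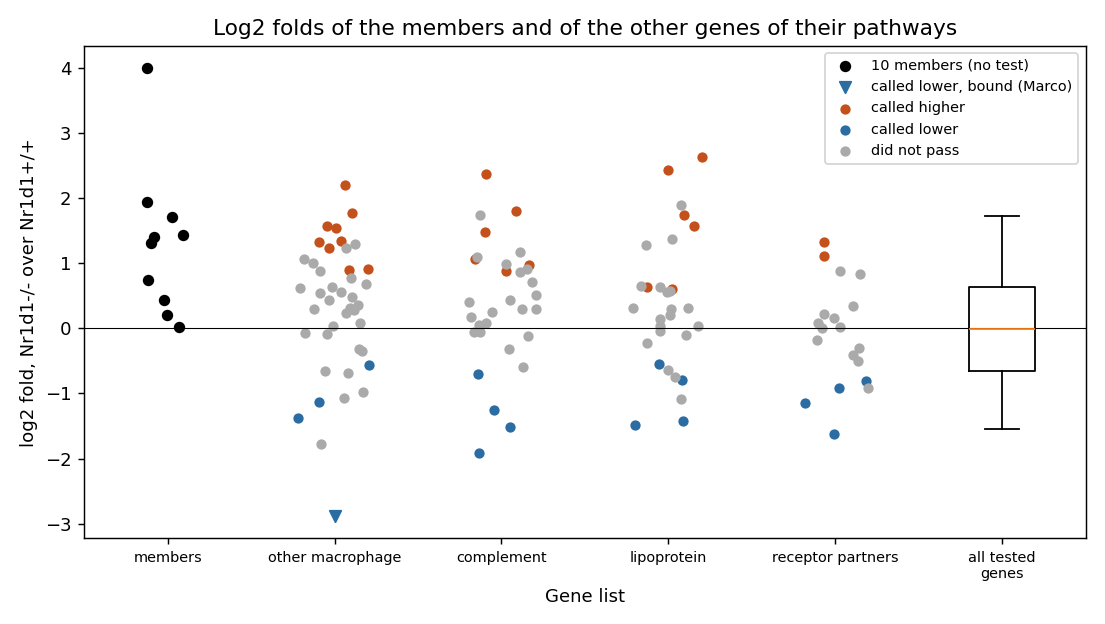
Log2 fold (Nr1d1-/- over Nr1d1+/+) of the 10 members (black, no test) and of the tested genes of 4 lists, coloured by edgeR call; the triangle is the upper bound for Marco, and the box on the right gives the quartiles of all tested genes with whiskers from percentile 5 to 95. Called genes lie on both sides of 0 in each of the 4 lists, while the members run from 0.02 (Adgre1) to 4.0 (Apoc1).

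Markers of some other cells differed between the libraries beside these genes. Over all tested genes, 16.5% were called higher and 17.3% lower. Red blood cell genes, among them the haemoglobin gene Hba-a2 (201 and 248 to 948 and 1032 CPM, edgeR adjusted p = 0.0011), summed to 454 and 583 CPM in the Nr1d1+/+ libraries and 2018 and 2198 CPM in the Nr1d1-/- libraries, with 5 of 6 tested members higher. Endothelial genes summed to 78.9 and 93.6 against 152 and 173 CPM with 8 of 13 higher. Of the other 5, which did not pass, Kdr and Cdh5 were lower in both Nr1d1-/- libraries. Kdr was at 3.97 and 7.09 against 1.91 and 3.04 CPM, and Cdh5 at 11.9 and 13.3 against 6.82 and 11.4 CPM. Adipocyte genes summed to 246 and 260.2 against 582 and 373 CPM with 5 of 11 higher. For dendritic cells 4 of 15 rose, among them Xcr1 (2.98 and 2.35 to 16.6 and 13.2 CPM, edgeR adjusted p = 0.00245) and Siglech (7.52 and 3.69 to 69.3 and 23.6 CPM, edgeR adjusted p = 0.00425). The other 11 did not pass, and of these H2-Eb1 was lower in both Nr1d1-/- libraries (1.04 and 1.34 against 0.44 and 0.993 CPM). The list summed to 380.4 and 295 against 549 and 716 CPM, mostly Cd74 (269.9 and 209 against 355 and 520.2 CPM). Neutrophil markers summed to 13173 and 9607 against 18189 and 15372 CPM, nearly all of it Lcn2 and Ltf, which are on the epithelial list too, and 2 of 8 rose. The neutrophil gene S100a8 was at 17 and 17.6 against 33.8 and 14.7 CPM. T and NK cell markers summed to 51.2 and 53.4 against 66.6 and 64.5 CPM, with 1 of 12 higher and 2 lower, and B and plasma cell markers to 41.9 and 49.3 against 57.8 and 76.1 CPM, mostly Sdc1 (36.4 and 43.2 against 41.6 and 58.6 CPM), with 1 of 5 higher. In the mast cell list 1 of 5 fell, Kit, which mammary epithelium also makes, and in the fibroblast list 3 of 14 rose. Of the epithelial list 5 of 20 rose and 2 fell, and of the common leukocyte list 3 of 17 rose and 2 fell. The share called higher was 17.6% for common leukocyte, 20% for B and plasma cell and 21.4% for fibroblast genes, not far from that of all tested genes. For T and NK cell genes 8.33% were called higher and 16.7% lower, and for mast cell genes 20% were called lower. In the skeletal muscle list 5 of 6 were called higher, but the high values were those of Nr1d1-/- replicate 1 alone, as for Acta1 (0.426 and 0.575 against 148 and 0.683 CPM). Markers at 0 in all 4 libraries included Blk of B cells, Fcer1a of mast cells and Camp of neutrophils. The part of these cell types in the levels of the 10 genes was not tested.

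The genes whose 4 log2 levels were most like the mean C1q profile were sought among the 10823 tested genes averaging 5 CPM or more, by the root mean square distance of centred log2 levels. Among the nearest were Hist1h1e (distance 0.0443), Pcbp4 (0.0779), Ssna1 (0.081) and Hist1h2af (0.0864). C1qc, C1qb and C1qa stood at 0.128, 0.154 and 0.192, and 20 genes were as near as C1qb. Apoe (0.158) and Trem2 (0.159) were as near as the chains themselves, Lyz2 (0.484), Csf1r (0.576), Cd68 (0.685) and Adgre1 (0.832) were farther, and Apoc1 (1.30) was the farthest. With 4 libraries such likeness is a description only.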

How the data were processed

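RNA was extracted with Trizol and made into libraries with a stranded SMARTer kit from total RNA, per the labels' protocols, and reads were aligned to mm10 with TopHat, per the submitters' processing notes. The authors deposited unnormalised counts for each gene symbol. Not given in the sources used here are the versions, counting program, annotation and strand setting. Everything after the counts was computed here. Counts were filtered with filterByExpr (minimum count 10), scaled by TMM (factors 1.106, 1.176, 0.859 and 0.895) and compared by genotype alone with edgeR 4.0.16 (quasi-likelihood F test, legacy=FALSE, R 4.3.3). The fit left 2 residual degrees of freedom and used Benjamini-Hochberg adjustment over 14801 genes. SE is the log2 fold over the root of F. Coordinates, lengths and GC content are from GENCODE M21 (GRCm38, the assembly of mm10), to which 22913 of 23282 rows were joined. Members and lists were chosen with earlier results of these data known. The naming rule was: all members, called genes of 4 lists up to 12 a list by lowest p, preset partners, up to 3 called genes of other cell lists, 3 coding neighbours a side, and 5 genes most like C1q. The fit was also run on simulated counts with few changed genes, a single dispersion and no GC or length trend. Those settings differ from these data, so that run says nothing on such trends. Replicates differed far beyond counting noise (chi-square per degree of freedom 43 and 55.9). Alternatives were other scalings, filters, DESeq2 1.42.0, limma-voom (limma 3.58.1), the older estimate, a replicate block, removal of GC and length trends (splines with 5 degrees of freedom, as offsets), leaving out structured RNAs, and leaving out each library. Floors cover counting error only. Some genes that the naming rule covers are counted but not reported here by name.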

Additional observations from a re-analysis of the deposited data

How the results depend on the processing

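The log2 folds of the 10 genes and of the called genes of the 4 lists, the list medians and the counts of calls were recomputed under 15 alternatives (14 for Adgre1, Masp2 and Marco). Neighbours, markers of other cells, sums, ratios and likeness were not. The median log2 fold of the 10 genes, 1.36, was 0.98 with library size only and 0.66 after removal of GC and length trends, and 1.03 to 1.55 when 1 library was left out. The log2 fold of Cd68 turned to -0.18 with library size only, to -0.24 with the trends removed and to -0.17 without Nr1d1+/+ replicate 1, and leaving out 1 library gave at most 0.64. That of Adgre1 turned to -0.36 with library size only, to -0.01 with no filter, to -0.02 with the replicate block, and, when 1 library was left out, to -0.35 (Nr1d1+/+ replicate 1) and -0.58 (Nr1d1-/- replicate 2), with 0.43 as the highest. The lipoprotein list's median turned to -0.07 with library size only. Leaving out 1 library gave medians of 0.13 to 0.84 for macrophage genes, 0.33 to 0.58 for complement, 0.17 to 0.44 for lipoprotein genes and -0.61 to 0.14 for partners. Over all tested genes, 2446 higher and 2565 lower calls became 1281 and 4410 with library size only, where the median of all genes moved by more than 0.1 to -0.38. With the trends removed 1662 were higher and 1580 lower, and leaving out 1 library gave 1212 to 2463 higher and 1277 to 2548 lower. With library size only, 3 complement genes were higher, 7 lipoprotein genes were lower and 1 receptor partner was higher. With upper quartile scaling 10 complement genes were higher, and with the trends removed 0 partners were called higher by edgeR (1 at an unadjusted p under 0.05), against 2 by DESeq2 and by limma-voom without that removal. Leaving out 1 library gave 4 to 9 macrophage genes higher and 1 to 5 lower, 4 to 8 complement genes higher and 3 to 4 lower, 4 to 7 lipoprotein genes higher and 2 to 4 lower, and 1 to 3 partners higher and 3 to 4 lower. The cause was not tested. Of 38 called genes of the 4 lists, 15 kept their call under every alternative. The labels do not say what replicate numbers share, and deviations of same-numbered libraries had a correlation of 0.026. The replicate block gave 2622 higher and 2704 lower genes, and C4a lost its call with it (adjusted p = 0.0504). Adgre1, with 43 counts in its lowest library, and genes of a few CPM are limited by depth. With 1 library left out, the lone sample of a group is assumed to vary like the others.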
